A study of Mus musculus with 6 samples.

Results

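The nuclei described here are ventricular cardiomyocyte nuclei of the mouse that were low in 5 stress markers. They were selected on measured counts. A barcode first needed at least 500 UMIs (unique molecular identifiers, each standing for 1 captured RNA molecule), at least 300 genes and at most 5% of its UMIs from mitochondrially encoded genes. A cardiomyocyte nucleus needed at least 1.5% of its UMIs and at least 20 UMIs from Ttn, Ryr2 and Myh6 together, with at most 3 UMIs from Pdgfra, Pecam1, Cdh5 and Rgs5. The nuclei kept then had at most 1 UMI summed over Nppb, Ryr3, Scube2, Slc24a2 and Kctd16. The rule left 4108 of 7264 cardiomyocyte nuclei, out of 48438 nuclei that passed the quality filters and 69249 barcodes. The other 3156 cardiomyocyte nuclei had 2 or more UMIs of the 5 genes and are called stress-type. Kept nuclei are described apart at 5000 UMIs or more (3012 nuclei) and below 5000 UMIs (1096 nuclei).

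The tissue was left ventricle of 12-week-old male mice. WT-CD animals were wild-type littermates fed control diet (CD). R403Q-CD animals had R403Q, a mutation in cardiac myosin heavy chain, with that diet too, and R403Q-EMPA animals had R403Q and a diet to which empagliflozin (EMPA) was added. EMPA is an inhibitor of the sodium-glucose cotransporter 2, given at 0.15 mg per g of diet, about 15 mg/kg. Each group had 2 libraries, and the labels do not say whether a library was 1 mouse, so the tests measure the spread between libraries, which may be technical. The diets are labelled as begun at 9 to 10 weeks of age, and the length of treatment is labelled in a way these ages do not allow.

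R403Q is a classical mutation of hypertrophic cardiomyopathy, an inherited disease of the sarcomere in which the ventricular wall thickens. Ventricular cardiomyocytes of adult mice contract with myosin containing mainly the alpha heavy chain (Myh6), held in register by titin (Ttn). They release calcium through the ryanodine receptor (Ryr2). Under load, stressed cardiomyocytes return to a fetal programme, of which the natriuretic peptides Nppa and Nppb are the best known members. Nuclei without that programme can still differ between conditions in metabolism, protein folding and the circadian clock, which runs in cardiomyocytes themselves.

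The kept share of the cardiomyocyte nuclei was set by the rule and is a description. At 5000 UMIs or more it was 74.0% (exact 95% binomial interval 71.2 to 76.6%) and 62.6% (58.8 to 66.3%) in the WT-CD libraries. It was 60.02% (56.7 to 63.3%) and 45.7% (42.2 to 49.3%) in the R403Q-CD libraries, and 30.8% (28.2 to 33.5%) and 44.0% (41.2 to 46.7%) in the R403Q-EMPA libraries. The order of the group means was WT-CD, R403Q-CD, R403Q-EMPA, and no library of one group lay inside the range of another. With every nucleus thinned to 5000 UMIs the shares were 83.0% and 80.6%, 75.0% and 65.3%, and 42.8% and 53.3% in the same order. Below 5000 UMIs they were 91.6% and 96.9%, 82.2% and 83.5%, and 71.8% and 68.2%. Intervals cover counting error only.

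**Figure D1:**
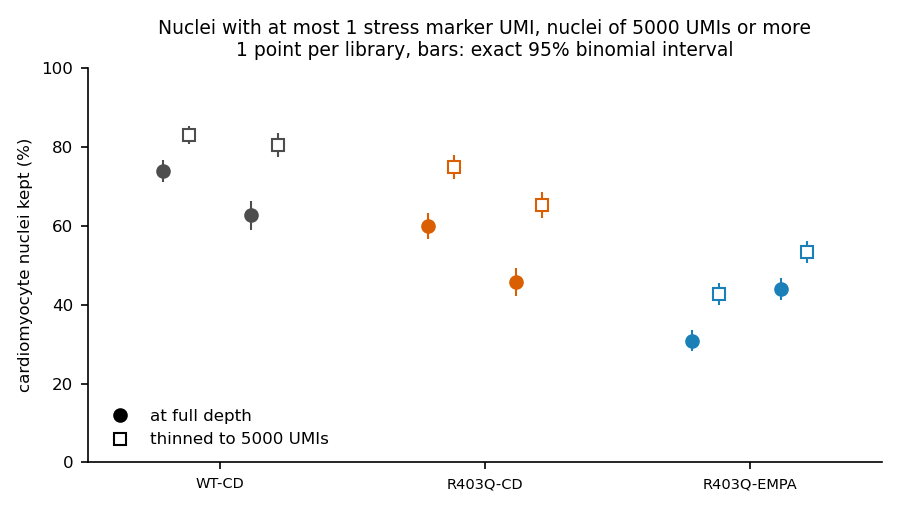
Percent of cardiomyocyte nuclei of 5000 UMIs or more that were kept in each of the 6 libraries, at full depth and thinned to 5000 UMIs. Bars are exact 95% binomial intervals. At 5000 UMIs or more the WT-CD libraries sit at 74.0% and 62.6% and the R403Q-EMPA libraries at 30.8% and 44.0%.

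In every library more nuclei lay just inside the limit than just outside it. At 5000 UMIs or more, the nuclei with 1 stress marker UMI, just inside, numbered 160 and 100 in the WT-CD libraries, 145 and 105 in the R403Q-CD libraries, and 129 and 171 in the R403Q-EMPA libraries. Those with 2, just outside, numbered 96 and 58, 82 and 75, and 91 and 114. Mylk4, a myosin light chain kinase family member of adult striated muscle, was at 654 and 571 CPM (UMIs of the gene per 1000000 UMIs of these nuclei) just inside and 506 and 557 just outside in the WT-CD libraries. In the R403Q-EMPA libraries Mylk4 was at 110 and 149 CPM just inside and 133 and 111 just outside. Nppa was higher just outside in 5 of the 6 libraries, and the exception was R403Q-EMPA replicate 2, at 64.2 CPM inside and 54.0 outside.

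The cell type label was checked against markers that the selection did not use. Nuclei outside the cardiomyocyte class numbered 41174 and are called the other nuclei. Summed over Myl2, Myl3 and Irx4, ventricular markers were at 1128 to 1499 CPM in the kept nuclei of 5000 UMIs or more. Their level in the other nuclei was 239 to 522 CPM. The 6 atrial markers together were at 604 to 850 CPM in these kept nuclei, against 25.8 to 456 CPM in the other nuclei. Of these markers, Sln and Bmp10 had 0 UMIs in every library of the kept nuclei. Myl7 was at 0 to 1.94 CPM and Myl4 at 3.88 to 5.83 CPM. Nppa is given below, and the remaining marker, Kcnj3, made up most of the sum in every library. WT-CD replicate 1 was lowest in the genes of the gate, at 4.18% of UMIs against 5.41 to 5.65% in the other 5 libraries. Summed UMIs per library were 3599228 to 6159668 at 5000 UMIs or more and 262695 to 838840 below, and median UMIs per kept nucleus were 7065 to 12421 and 2554 to 3785. Mitochondrial UMIs were 0.846 to 1.26% and 1.95 to 3.10%. Predicted doublets made up 2.70 to 8.12% of the deeper and 6.61 to 30.1% of the shallower kept nuclei. Libraries shared 23 to 56 barcodes per pair, and 1 kept barcode occurred in both R403Q-CD replicate 1 and R403Q-EMPA replicate 1.

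Markers of other cell types remained in the kept nuclei. All 8 fibroblast markers were detected, summing to 179 to 384 CPM in WT-CD, 132 to 156 CPM in R403Q-CD libraries, and 115 to 141 CPM in R403Q-EMPA libraries, against 2967 to 6623 CPM in the other nuclei. All 4 smooth muscle markers were detected, at 45.3 to 81.2, 27.3 to 67.0 and 14.1 to 22.8 CPM in the same order, against 38.5 to 68.8 CPM in the other nuclei. Pericyte markers summed to 258 to 363 CPM over all libraries, against 721 to 1794 CPM in the other nuclei. The 6 myeloid markers summed to 19.8 to 89.7 CPM over all libraries. An alternative chosen after seeing the data left out nuclei with 5 or more UMIs of fibroblast, endothelial, myeloid and lymphoid markers. Of the genes called below at 5000 UMIs or more, it kept 24 of 25 for R403Q-CD against WT-CD. It kept 20 of 20 for R403Q-EMPA against R403Q-CD and 265 of 308 for R403Q-EMPA against WT-CD. Beyond that, the part of these markers and of transcripts from other cells in the differences below was not tested.

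Several genes of the heat shock response and of the clock changed in the kept nuclei, so stretches of their promoters are shown first. The heat shock factor element was searched as GAANNTTC or TTCNNGAA on both strands, from 250 bases before to 50 bases after each start site (RefSeq, GRCm38.p6). Of 14 listed heat shock genes with a promoter entry, 11 held it, against 15.1% of all 32851 promoters and 14.0% of the 9469 tested genes that had one. Of the 11 heat shock genes called higher in R403Q-EMPA than in WT-CD, 7 had a promoter entry and 5 of those held the element (Chordc1, Dnaja1, Hspa1a, Hspb1 and Hsph1). The element was also in Bag3, Dnajb4, Hspb6, Hspb8, Hspd1 and Hspe1, which were tested and not called. Holding it thus did not set the called genes apart within the list. Capitals mark the element in 4 of the called genes, on the strand of the gene. The first match begins 33 bases before the start in Hsph1, 104 in Hspa1a, 124 in Dnaja1 and 117 in Hspb1.
Hsph1, chr5:149636337-149636396, minus strand: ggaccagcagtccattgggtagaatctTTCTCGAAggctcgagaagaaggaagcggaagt
Hspa1a, chr17:34972211-34972270, minus strand: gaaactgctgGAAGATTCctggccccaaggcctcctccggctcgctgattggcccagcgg
Dnaja1, chr4:40722334-40722393, plus strand: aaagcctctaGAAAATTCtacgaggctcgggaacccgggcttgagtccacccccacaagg
Hspb1, chr5:135887792-135887851, plus strand: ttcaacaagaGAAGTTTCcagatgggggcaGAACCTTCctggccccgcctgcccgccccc

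Among the clock genes the motifs were rarer. The D-box TTATGTAA, which binds Nfil3 and the factors Dbp, Tef and Hlf, was in 0.938% of all promoters, 0.760% of the tested genes that had one and 1 of 16 clock genes with an entry, Per3. The E-box CACGTG, which binds the Clock and Arntl pair, was in 7.15% of all promoters, 11.8% of the tested genes that had one and 5 of the 16 (Tef, Bhlhe41, Ciart, Cry1 and Per1). Of the 7 clock genes called in R403Q-EMPA against WT-CD, all with an entry, 1 held the D-box and 1 the E-box. Per3 and Tef are shown because both were called in the kept nuclei. Capitals mark the motif, which begins 205 bases before the start in Per3 and 127 in Tef. A match is a description of the letters and not a bound site.
Per3, chr4:151044821-151044880, minus strand: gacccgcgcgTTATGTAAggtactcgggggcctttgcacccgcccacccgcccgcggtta
Tef, chr15:81802536-81802595, plus strand: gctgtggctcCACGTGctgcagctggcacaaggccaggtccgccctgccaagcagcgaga

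Setting R403Q-CD against WT-CD asked what the mutation changed in kept nuclei on the same diet. In nuclei of 5000 UMIs or more, a metabolic signalling gene, a prostaglandin synthase and immediate early genes rose in the mutant, and 5 genes fell. In edgeR's quasi-likelihood test with Benjamini-Hochberg adjustment, 25 of 12597 genes were called at an adjusted p below 0.05, which is 0.198% of the genes. Of these 20 rose (0.159%) and 5 fell (0.0397%). The libraries of all 25 did not overlap between groups, as was the case for 32.8% of all genes. The median log2 fold change over all genes was -0.01. The 6 largest rises and all falls are named by rule, as are members of the gene lists, and the other genes were chosen after their values were seen.

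Fnip2 encodes a folliculin-interacting protein that takes part in AMPK and mTORC1 signalling. It was at 94.2 and 109 CPM in the WT-CD libraries, 382 and 325 in the R403Q-CD libraries, and 168 and 246 in the R403Q-EMPA libraries. The mutant libraries on control diet were highest and those with EMPA lay between, without overlap. Fnip2 was 3.51-fold higher in R403Q-CD than in WT-CD (log2 1.81 ± 0.23, SE, adjusted p = 0.00795), and the call held in all 17 alternative analyses, at adjusted p up to 0.036. Ptgds, which makes prostaglandin D2, was at 126 and 141 CPM in WT-CD, 487 and 427 in R403Q-CD libraries, and 549 and 858 in R403Q-EMPA libraries. It was 3.45-fold higher in R403Q-CD (log2 1.79 ± 0.24, adjusted p = 0.00795), held in all 17 alternatives at adjusted p up to 0.0464, and was high in both mutant groups.

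The insulin receptor substrate Irs2 followed another pattern. It was at 15.1 and 22.6 CPM in WT-CD, 58.6 and 77.2 in R403Q-CD libraries, and 11.9 and 11.6 in R403Q-EMPA libraries, so that only the mutant libraries on control diet were high. The rise in R403Q-CD was 3.62-fold (log2 1.86 ± 0.24, adjusted p = 0.00795). The fall from R403Q-CD to R403Q-EMPA was 5.91-fold (log2 -2.56 ± 0.26, adjusted p = 0.00100), in a comparison that shares the R403Q-CD libraries. Irs2 kept both calls without any 1 library and lost both when the stress-type nuclei were included (adjusted p = 0.120 and 0.0592, the highest of the 17 alternatives in each, which began at 6.13e-15 and 7e-24).

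Transcripts of the immediate early class, which cells make within minutes of a signal, rose in 2 of 13 tested members in R403Q-CD, beside 0.159% of all genes called higher. Atf3 was at 4.87 and 2.95 CPM in WT-CD, 21.6 and 14.0 in R403Q-CD libraries, and 7.78 and 8.44 in R403Q-EMPA libraries (R403Q-CD against WT-CD 4.60-fold, log2 2.20 ± 0.33, adjusted p = 0.0171). Nr4a3, a nuclear receptor without a known ligand, was at 2.27 and 2.36, 17.5 and 14.9, and 8.06 and 1.60 CPM (7.06-fold, log2 2.82 ± 0.49, adjusted p = 0.0413). For both genes the R403Q-CD libraries were the highest. The Atf3 call was lost without R403Q-CD replicate 1 (adjusted p = 0.132) and held in the other 16 alternatives, from 2.37e-09. The Nr4a3 call held in 10 of 17 alternatives and was lost without WT-CD replicate 1 (0.140, the highest), WT-CD replicate 2 (0.0623), R403Q-CD replicate 1 (0.121) or R403Q-CD replicate 2 (0.0729). In the other nuclei Nr4a3 was at 6.52 to 10.1 CPM and Atf3 at 5.63 to 8.77 CPM over all libraries.

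Other genes that rose were mostly at low levels. Slc35f3, a transporter family member, was at 0.812 and 1.38 CPM in WT-CD and 6.38 and 10.4 in R403Q-CD libraries (log2 2.94 ± 0.48, adjusted p = 0.0308). Its call was lost without WT-CD replicate 1 (0.122) or R403Q-CD replicate 2 (0.183), and ranged from 2.09e-08 to 0.363 over the alternatives. The carboxypeptidase-like Cpxm2 was at 2.11 and 2.56 against 11.7 and 14.2 CPM (log2 2.48 ± 0.33, adjusted p = 0.00795). The kinase Pak5 was at 6.01 and 5.70 against 19.3 and 26.6 CPM, and Rgs7bp, which binds regulators of G protein signalling, at 6.82 and 5.70 against 21.1 and 27.5 CPM. In these 3 genes both R403Q-CD libraries were at least 3 times as high as both WT-CD libraries. Their calls were lost only without R403Q-CD replicate 2 (adjusted p = 0.0555, 0.0610 and 0.0610) and held in the other 16 alternatives, from 1.01e-09.

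A metalloproteinase inhibitor, an interferon-induced gene and a Z-disc gene were also among the rises. Timp3 was at 75.0 and 54.1 CPM in WT-CD, 174 and 145 in R403Q-CD libraries, and 143 and 153 in R403Q-EMPA libraries (log2 1.33 ± 0.18, adjusted p = 0.00795). It was lost without R403Q-CD replicate 1 (0.0743, the highest of 17, from 2.55e-09). The GTPase Gbp6 was at 14.6 and 20.8, 57.2 and 56.1, and 63.9 and 89.8 CPM (log2 1.69 ± 0.24, adjusted p = 0.0133), lost without WT-CD replicate 1 (0.0697, the highest of 17, from 1.05e-12). Myot, or myotilin of the Z-disc, was at 101 and 76.5, 171 and 230, and 183 and 255 CPM (log2 1.20 ± 0.21, adjusted p = 0.0452). For Timp3, Gbp6 and Myot both mutant groups lay above WT-CD. The Myot call held in 10 of 17 alternatives, from 2.29e-07 to 0.306, and was lost without either WT-CD library (0.0767 and 0.0689) or either R403Q-CD library (0.0526 and 0.306).

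The falls in R403Q-CD included a synaptic adhesion gene and an inhibitor of Ras signalling. Clstn2, or calsyntenin 2, was at 137 and 131 CPM in WT-CD, 59.7 and 55.2 in R403Q-CD libraries, and 29.7 and 30.1 in R403Q-EMPA libraries. The 3 groups were separate, each lower than the last, and the fall in R403Q-CD was log2 -1.21 ± 0.16 (adjusted p = 0.00795). That call was lost without R403Q-CD replicate 1 (0.0515) or replicate 2 (0.144, the highest of 17, from 3.75e-07). Spred2, which restrains the Ras-ERK pathway, was at 58.3 and 96.5, 20.4 and 23.3, and 54.5 and 37.2 CPM (log2 -1.83 ± 0.28, adjusted p = 0.0176), lost without R403Q-CD replicate 1 (0.0757, the highest of 17, from 6.13e-15) or replicate 2 (0.0651). Spred2 was lowest in the R403Q-CD libraries. Gabrg3, a GABA receptor subunit, and the unnamed transcripts Gm36670 and Gm30624 also fell (log2 -1.18 ± 0.21, -3.07 ± 0.51 and -2.11 ± 0.34). These 3 calls were lost without R403Q-CD replicate 1 (adjusted p = 0.241, 0.225 and 0.152) or replicate 2 (0.225, 0.0524 and 0.0524), that of Gm36670 also without WT-CD replicate 1 (0.0767) and that of Gabrg3 without R403Q-EMPA replicate 1 (0.0628) or 2 (0.0625). Over 17 alternatives they ranged from 1.69e-05, 3.16e-08 and 5.91e-10 to 0.241, 0.225 and 0.447.

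Setting R403Q-EMPA against R403Q-CD asked what EMPA changed in kept nuclei of mutant hearts. Chaperones, a pair of prolyl hydroxylases and an inhibitor of mTORC1 rose, and the insulin receptor substrate Irs2 fell furthest. At 5000 UMIs or more, 20 of 12597 genes were called (0.159%), 8 higher (0.0635%) and 12 lower (0.0953%). All 20 were without overlap between the libraries, as were 48.5% of all genes, and the median log2 over all genes was 0.00.

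Hsph1, a partner of the heat shock protein 70 chaperones, was at 5.68 and 5.11 CPM in WT-CD, 11.3 and 12.2 in R403Q-CD libraries, and 74.5 and 47.9 in R403Q-EMPA libraries. It was 5.01-fold higher with EMPA (log2 2.32 ± 0.23, adjusted p = 0.00100), and held in all 17 alternatives, at adjusted p up to 0.0245. The R403Q-EMPA libraries stood far above the other 4. P4ha1, a subunit of the enzyme that hydroxylates proline in collagen, was at 43.8 and 33.8, 46.0 and 46.4, and 142 and 151 CPM, 3.08-fold higher with EMPA (log2 1.62 ± 0.16, adjusted p = 0.00100), and held in all 17 alternatives up to 0.0245. The other nuclei moved in the same direction, with Hsph1 at 18.9 to 32.4 CPM in the 4 control-diet libraries and 163 in both EMPA libraries, and P4ha1 at 147 to 183 CPM against 438 and 471 CPM.

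Further rises were those of a hydroxylase, chaperones and the mTORC1 inhibitor. Egln3, a prolyl hydroxylase that marks hypoxia-inducible factors for degradation, was at 17.9 and 20.1 CPM in WT-CD, 17.5 and 20.4 in R403Q-CD libraries, and 60.9 and 50.2 in R403Q-EMPA libraries (2.84-fold, log2 1.504 ± 0.20, adjusted p = 0.00985). Its call was lost without R403Q-CD replicate 1 (0.0642), R403Q-EMPA replicate 1 (0.125, the highest of 17, from 1.36e-08) or R403Q-EMPA replicate 2 (0.0528). Stip1, which passes clients from the 70 to the 90 kDa chaperones, was at 15.4 and 11.8, 24.8 and 19.1, and 61.1 and 51.3 CPM (log2 1.30 ± 0.20, adjusted p = 0.0216). Both genes were highest in the EMPA libraries. The Stip1 call was lost without R403Q-CD replicate 2 (0.241, the highest of 17, from 1.8e-06), R403Q-EMPA replicate 1 (0.231) or replicate 2 (0.0892). Ddit4, an inhibitor of mTORC1, was at 17.2 and 16.0 CPM in R403Q-CD libraries, rising to 39.7 and 52.7 in R403Q-EMPA libraries (log2 1.44 ± 0.25, adjusted p = 0.0439), and was lost without any 1 of these 4 libraries (0.126, 0.241, 0.116 and 0.278, the last being the highest of 17, from 3.04e-07). The chaperone Hspa4l was at 41.3 and 41.0 against 106 and 84.1 CPM (log2 1.16 ± 0.16, adjusted p = 0.0162), and was likewise lost without any 1 of the 4 (0.0909, 0.189, 0.193 and 0.0528, from 3.56e-06 over 17). The small GTPase Rnd3 was at 16.2 and 12.4, 11.5 and 11.3, and 26.4 and 31.2 CPM (log2 1.30 ± 0.22, adjusted p = 0.0439). The Rnd3 call held in 10 of 17 alternatives, from 0.00012 to 0.256, and was lost without any 1 of the 4 as well (0.159, 0.256, 0.145 and 0.241).

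Besides Irs2, the falls with EMPA included Sema3a, a secreted semaphorin that guides axons. Sema3a was at 24.8 and 21.8 CPM in WT-CD, 24.97 and 18.6 in R403Q-CD libraries, and 8.06 and 5.70 in R403Q-EMPA libraries (log2 -1.73 ± 0.26, adjusted p = 0.0216). Its call held in 12 of 17 alternatives, from 4.84e-07 to 0.198, and was lost without R403Q-CD replicate 1 (0.112) or R403Q-EMPA replicate 1 (0.127) or 2 (0.198). The unnamed transcript Gm57466 fell by 1.48 on the log2 scale (adjusted p = 0.0439), held in 13 of 17 alternatives, from 1.26e-07, and was lost without R403Q-CD replicate 2 or R403Q-EMPA replicate 2 (0.241 each, the highest). Phactr1, which binds actin and protein phosphatase 1, was at 105 and 74.7 CPM in WT-CD, 73.1 and 79.2 in R403Q-CD libraries, and 27.8 and 23.5 in R403Q-EMPA libraries. It was 3.07-fold lower with EMPA (log2 -1.62 ± 0.18, adjusted p = 0.00264), lost without R403Q-EMPA replicate 2 (0.0593, the highest of 17, from 1.41e-11). Dhrs3, which reduces retinaldehyde, was at 39.8 and 54.5, 104 and 92.7, and 33.1 and 34.0 CPM (log2 -1.60 ± 0.21, adjusted p = 0.00985). Dhrs3 was thus high in the R403Q-CD libraries alone, and its call was lost without R403Q-EMPA replicate 1 (0.145, the highest of 17, from 4.93e-12) or replicate 2 (0.0898). Ky, a muscle protein of the Z-disc, was at 47.4 and 40.3, 27.6 and 27.3, and 11.9 and 9.58 CPM (log2 -1.40 ± 0.20, adjusted p = 0.0182), lost without R403Q-CD replicate 1 (0.0677) or 2 (0.0718) or R403Q-EMPA replicate 1 (0.127) or 2 (0.173, the highest of 17, from 7.55e-06). The carboxylesterase Ces1d, which breaks down triglyceride, was at 413 and 355, 431 and 561, and 183 and 242 CPM (log2 -1.26 ± 0.20, adjusted p = 0.0351), lost without any 1 of the R403Q-CD and R403Q-EMPA libraries (0.0547, 0.269, 0.407 and 0.0898, from 1.04e-07 over 17). Carmn, a long noncoding RNA known from smooth muscle, also fell (log2 -1.17, adjusted p = 0.0359), beside smooth muscle markers of 27.3 to 67.0 CPM in R403Q-CD libraries and 14.1 to 22.8 CPM in those with EMPA. Its call was lost without any 1 of these 4 libraries (0.0574, 0.241, 0.0880 and 0.260, from 3.41e-06 over 17).

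**Figure D2:**
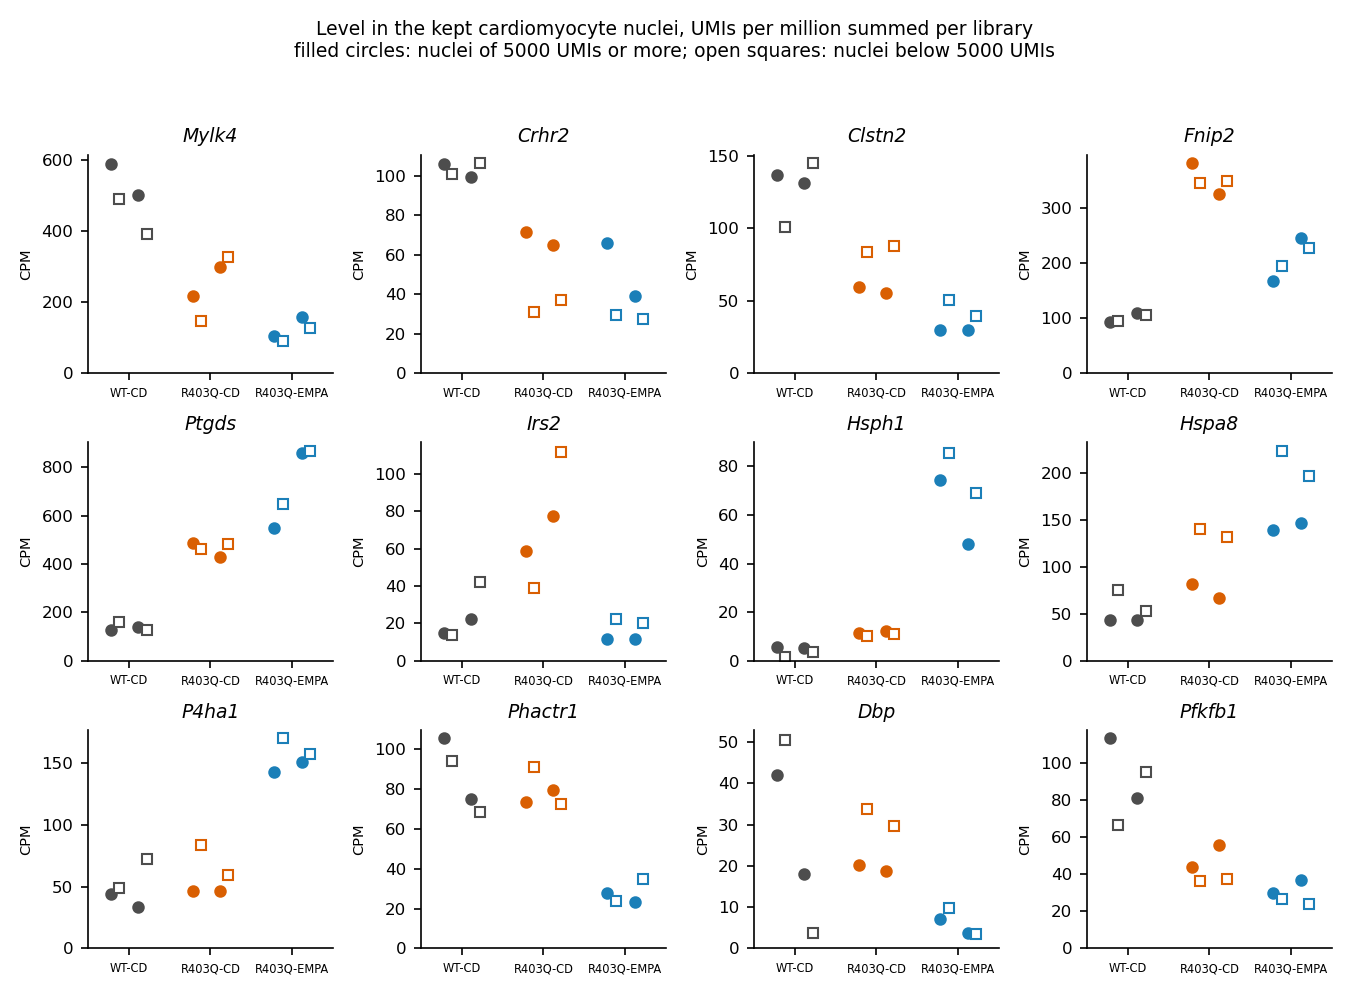
Levels in CPM of 12 genes in each library, with kept nuclei of 5000 UMIs or more as filled circles and those below 5000 UMIs as open squares. Irs2 is high in the R403Q-CD libraries alone at 58.6 and 77.2 CPM, Ptgds is high in both mutant groups, and Hsph1 and P4ha1 are high with EMPA.

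The difference between R403Q-EMPA and WT-CD carries the mutation and the drug together and cannot separate them, since no wild-type mice on EMPA were analysed here. It shares its libraries with the comparisons above. The labels used here name no time of day of tissue collection, and its part in the differences between groups was not tested. At 5000 UMIs or more, 308 of 12597 genes were called (2.45%), 142 higher (1.13%) and 166 lower (1.32%), all without overlap, as was the case for 43.6% of all genes. Leaving out 1 library at a time, 27 of the 308 were called every time. The calls included rises of 11 of 19 tested chaperones, changes of 7 of 19 clock genes in both directions and a fall of the muscle kinase Mylk4.

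Of 19 tested heat shock chaperones 11 rose and none fell, beside 1.13% of all genes called higher, all 19 had a log2 fold change above 0, and the median was 1.03 against -0.01 over all genes. Hsph1 was 11.0-fold higher than in WT-CD (log2 3.46 ± 0.25, adjusted p = 6.01e-05). Hspa8, the constitutive heat shock protein 70, was at 43.8 and 43.9 CPM in WT-CD, 82.0 and 66.3 in R403Q-CD libraries, and 139 and 146 in R403Q-EMPA libraries (3.19-fold, log2 1.67 ± 0.17, adjusted p = 0.000591). The inducible heat shock protein 90, Hsp90aa1, was at 21.9 and 23.0, 42.9 and 30.4, and 66.4 and 69.5 CPM (log2 1.57 ± 0.20, adjusted p = 0.00274). In Hspa8 and Hsp90aa1 the R403Q-CD libraries lay between the other groups. The small chaperone of muscle Cryab was at 72.1 and 46.8, 92.8 and 88.3, and 154 and 154 CPM (log2 1.36 ± 0.18, adjusted p = 0.00274). Hsph1, Hspa8, Hsp90aa1 and Cryab held in all 17 alternatives, at adjusted p up to 0.00179, 0.00975, 0.027 and 0.027.

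The inducible Hspa1a had 0 UMIs in the WT-CD libraries, 0 and 2 in the R403Q-CD libraries, and 16 and 11 (4.45 and 2.51 CPM) in the R403Q-EMPA libraries. It passed the filter on low counts only through the R403Q-EMPA libraries, where it is high. Its place among the 11 chaperones called is therefore a description. Against a floor of 3 UMIs over the WT-CD group it was at least 12.7-fold higher (adjusted p = 0.0226), and reads of Hspa1a and its near-identical copy Hspa1b cannot be fully told apart. Its call was lost without WT-CD replicate 1 (0.0754) or 2 (0.0636) or R403Q-EMPA replicate 2 (0.0959, the highest of 14 alternatives, from 2.56e-05). With Hspa1a at its bound the median of the list was again 1.03. The co-chaperone Dnajb1 was at 4.38 and 1.97, 6.55 and 7.54, and 20.6 and 13.9 CPM (log2 2.38 ± 0.36, adjusted p = 0.00565), lost without R403Q-EMPA replicate 1 (0.0594, the highest of 17, from 1.28e-09). Dnaja1, Hsp90ab1, Hspa4l, Chordc1 and Hspb1 rose by log2 1.66, 1.25, 1.03, 0.96 and 1.15, and each of these calls was lost without R403Q-EMPA replicate 1 (Hspa4l 0.0887, Chordc1 0.0504, Hspb1 0.134) or replicate 2 (Dnaja1 0.0636, Hsp90ab1 0.0661, Chordc1 0.0946, Hspb1 0.0934). The adjusted p of these 5 ranged over their alternatives from 5.5e-14 (Dnaja1) to 0.197 (Hspb1 at a limit of 1% mitochondrial UMIs).

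In R403Q-CD against WT-CD none of the 19 chaperones was called, beside 0.159% of all genes called higher. There 17 of 19 were above 0 and the median log2 was 0.37, against -0.01 over all genes. In R403Q-EMPA against R403Q-CD 2 of 19 were called higher, Hsph1 and Hspa4l, beside 0.0635% of all genes. There 18 were above 0 and the median was 0.72, against 0.00 over all genes. The other nuclei held the same direction, with Hspa8 at 75.2 to 117 CPM on control diet and 274 and 242 CPM with EMPA, and Hsp90aa1 at 40.1 to 53.7 against 139 and 166 CPM. Whether transcripts from other cells contributed to the rise in the kept nuclei was not tested. The mitochondrially encoded share, a sign of RNA quality, was 1.11% and 0.938% for the WT-CD libraries, 0.846% and 0.933% for R403Q-CD, and highest in R403Q-EMPA libraries at 1.18% and 1.26%. Its part in the differences was not tested.

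**Figure D3:**
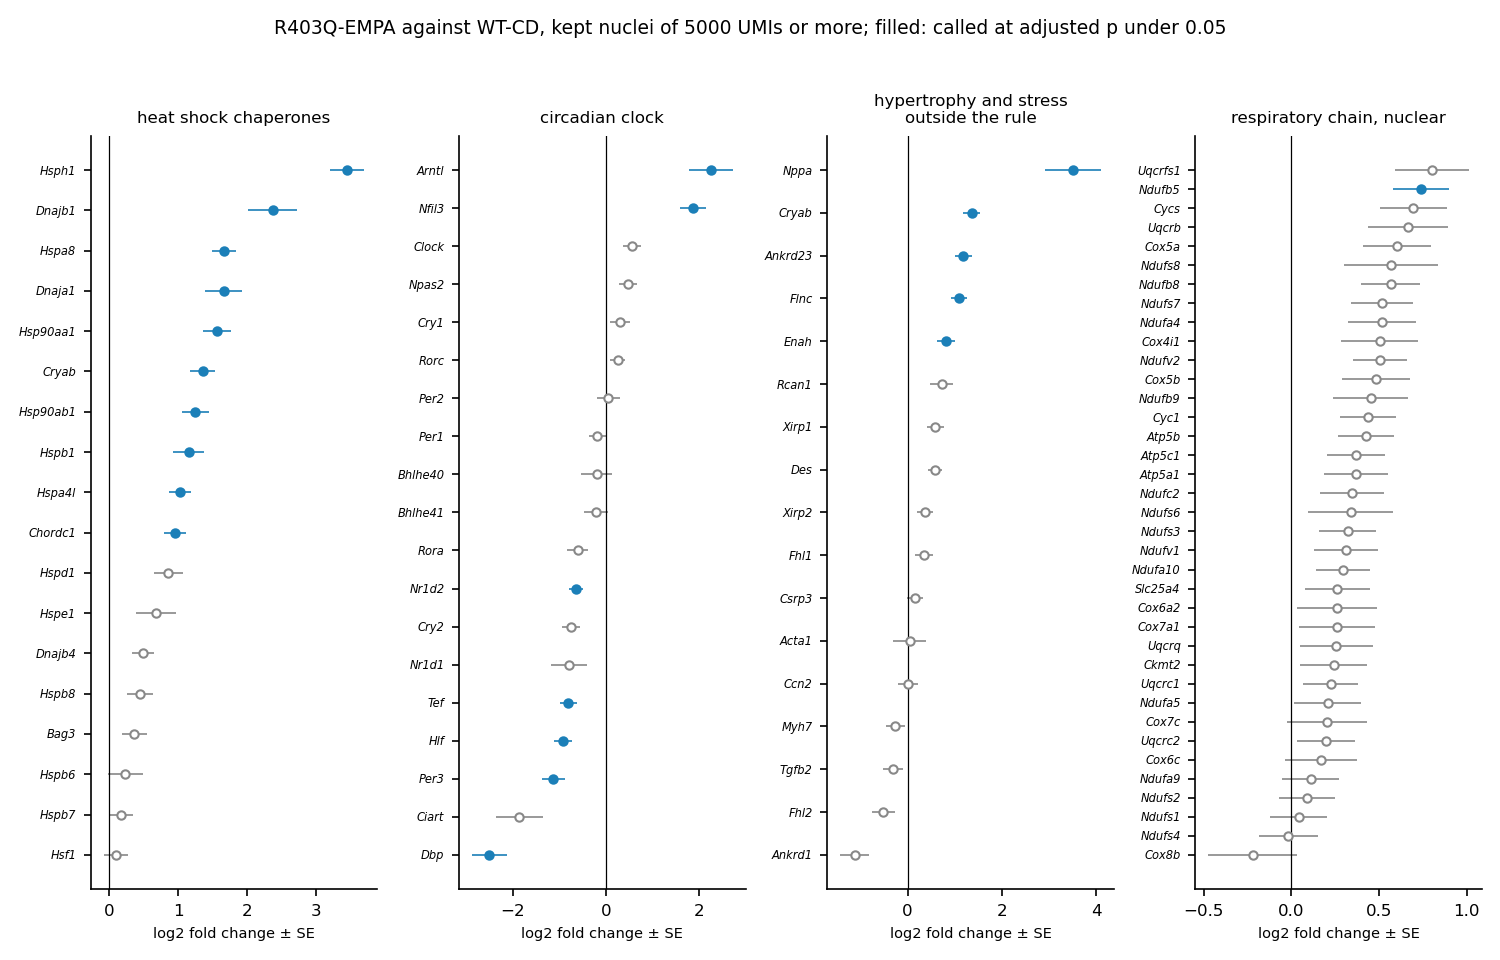
Log2 fold change of R403Q-EMPA against WT-CD with SE for members of 4 gene lists in kept nuclei of 5000 UMIs or more, filled where called at an adjusted p below 0.05. The chaperones lie above 0, with Hsph1 at 3.46 (Hspa1a, which has 0 UMIs in WT-CD, is not drawn), while the clock genes lie on both sides.

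Of 19 clock genes 2 rose and 5 fell, beside 1.13% and 1.32% of all genes, and the list's median log2 was -0.21. Arntl, the activating partner of Clock, was at 3.25 and 11.2 CPM in WT-CD, 14.5 and 11.8 in R403Q-CD libraries, and 22.8 and 45.6 in R403Q-EMPA libraries (log2 2.25 ± 0.47, adjusted p = 0.0275). Its WT-CD libraries differed from each other more than 3-fold, and the call was lost without WT-CD replicate 1 (0.0596) or R403Q-EMPA replicate 2 (0.263, the highest of 17, from 9.39e-15). The repressor Nfil3 was at 8.44 and 11.2, 22.8 and 14.0, and 33.6 and 39.0 CPM (log2 1.87 ± 0.28, adjusted p = 0.00565), lost without R403Q-EMPA replicate 2 (0.0555, the highest of 17, from 1.94e-11).

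The clock outputs that compete with Nfil3 for the D-box moved the other way. Dbp was at 42.1 and 18.1 CPM in WT-CD, 20.2 and 18.9 in R403Q-CD libraries, and 7.22 and 3.65 in R403Q-EMPA libraries (log2 -2.51 ± 0.37, adjusted p = 0.00565), lost without R403Q-EMPA replicate 2 (0.0663, the highest of 17, from 1.58e-15). Tef was at 324 and 220, 254 and 272, and 151 and 163 CPM (log2 -0.81 ± 0.18, adjusted p = 0.0372), and Hlf fell by 0.92 on the log2 scale (adjusted p = 0.0267). Both were lost without either EMPA library (Tef 0.292 and 0.178, Hlf 0.177 and 0.176), and Tef also without either R403Q-CD library (0.088 and 0.0831). The lowest adjusted p over their 17 alternatives was 0.00216 and 0.000926. Per3, a period gene whose promoter stretch with a D-box is printed above, was at 196 and 97.1, 105 and 115, and 78.1 and 56.8 CPM (log2 -1.13 ± 0.24, adjusted p = 0.0318), lost without WT-CD replicate 1 (0.0658) or R403Q-EMPA replicate 1 (0.112) or 2 (0.271, the highest of 17, from 1.48e-06). Nr1d2, a repressor of Arntl, was at 107 and 94.6, 113 and 118, and 64.2 and 66.1 CPM (log2 -0.65, adjusted p = 0.0456), and was lost without any 1 R403Q-CD (0.121 and 0.117) or EMPA library (0.309 and 0.232, with 0.0241 the lowest of 17). In the other nuclei Dbp was at 45.1 to 108 CPM on control diet and 20.5 and 12.5 CPM with EMPA, and Arntl at 4.97 to 9.27 against 37.7 and 32.6 CPM.

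Mylk4 and Crhr2 mark cardiomyocytes against the other nuclei and were not used in the selection. Mylk4 was at 588 and 499 CPM in WT-CD, 217 and 298 in R403Q-CD libraries, and 104 and 157 in R403Q-EMPA libraries, with the groups apart. It was 4.21-fold lower in R403Q-EMPA than in WT-CD (log2 -2.07 ± 0.23, adjusted p = 0.00114) and held in all 17 alternatives, up to 0.0201. After thinning to 5000 UMIs, 72.7% and 64.9% of kept nuclei had a Mylk4 UMI in WT-CD, 44.2% and 43.5% in R403Q-CD libraries, and 23.2% and 31.2% in R403Q-EMPA libraries, against 2.68 to 7.28% of other nuclei. In stress-type nuclei the thinned Mylk4 shares were 74.4% and 68.7%, 35.4% and 35.9%, and 14.9% and 19.9% in the same order, below those of kept nuclei in the 4 mutant libraries and above them in both WT-CD libraries. Unthinned, the Mylk4 shares of kept nuclei were 80.2% and 76.8%, 56.9% and 55.7%, and 35.7% and 35.7%. Crhr2, a receptor for urocortins, was at 106 and 99.5, 71.5 and 65.0, and 66.1 and 39.0 CPM (2.01-fold lower in R403Q-EMPA, log2 -1.01 ± 0.21, adjusted p = 0.0271). The 2 EMPA libraries differed, the call was lost without R403Q-EMPA replicate 2 (0.239, the highest of 17, from 4.78e-05), and thinned shares were 37.1% and 32.5%, 30.3% and 20.7%, and 27.3% and 17.1% (unthinned 23.2 to 57.6%). Thinned Crhr2 shares of stress-type nuclei were 39.6% and 29.8%, 26.4% and 23.2%, and 11.7% and 12.2%, below those of kept nuclei in both EMPA libraries, with 1 library of each other group above.

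**Figure D4:**
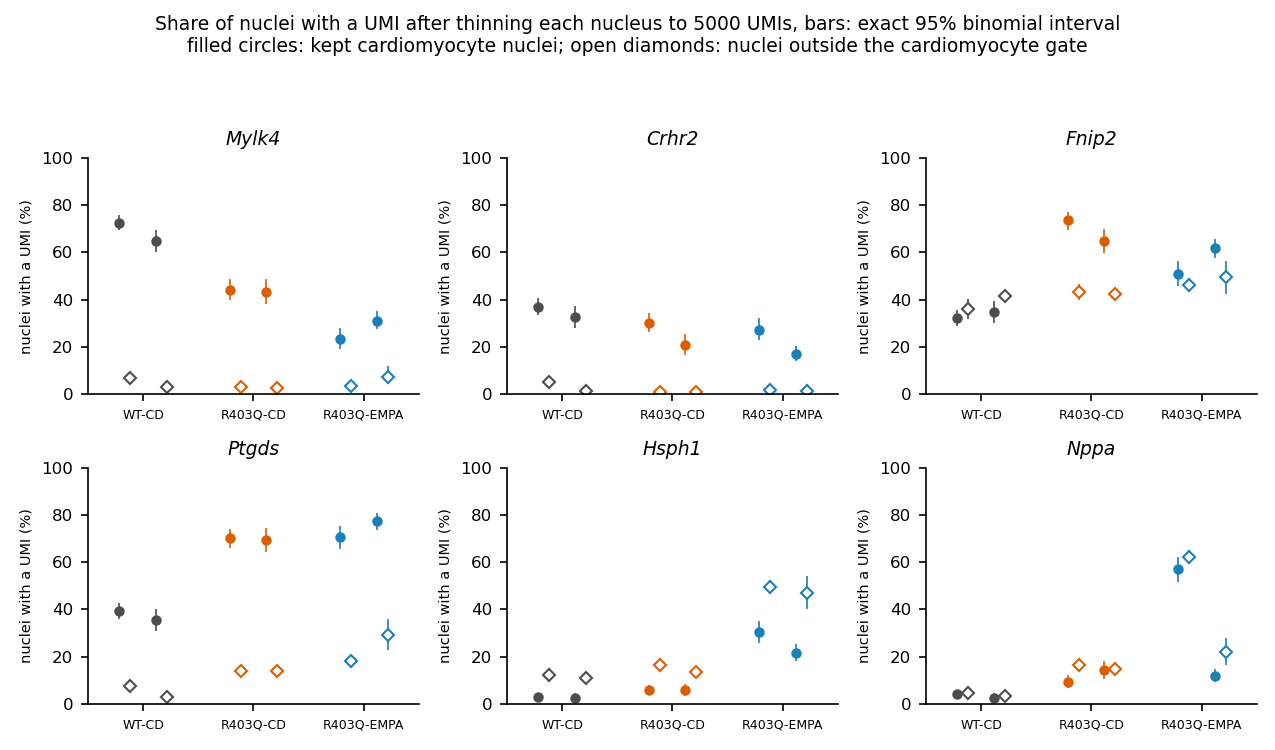
Percent of nuclei with at least 1 UMI of 6 genes after thinning to 5000 UMIs, in kept nuclei (filled circles) and other nuclei (open diamonds) of each library. Mylk4 is at 72.7% and 64.9% in WT-CD libraries and at 23.2% and 31.2% in those of R403Q-EMPA, while Hsph1 and Nppa lie at or below the other nuclei in each library.

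Thinned shares leave out nuclei below 5000 UMIs, which numbered 257 (WT-CD), 331 (R403Q-CD) and 508 (R403Q-EMPA) among the kept ones. Hsph1, a gene of all cell types, was detected after thinning in 2.96% and 2.61% of kept nuclei in WT-CD, 5.79% and 5.68% in R403Q-CD libraries, and 30.3% and 21.6% in R403Q-EMPA libraries, below the other nuclei of the same library each time (12.1% and 10.9%, 16.6% and 13.4%, and 49.4% and 47.1%). Unthinned, the kept shares were 4.51 and 5.69%, 9.85 and 12.5%, and 46.2 and 27.5%. Fnip2 was detected in 32.3% and 34.8%, 73.6% and 65.1%, and 51.1% and 61.8% of kept nuclei (unthinned 43.7 to 86.9%). Only in R403Q-CD and R403Q-EMPA libraries did these shares pass the 36.1 to 49.5% seen over the other nuclei. Ptgds was detected in 39.3% and 35.5%, 70.3% and 69.6%, and 70.5% and 77.4% of kept nuclei, above the 3.11 to 29.1% of other nuclei in every library (unthinned 49.4 to 84.4% against 4.74 to 34.0%). The thinned shares of other nuclei were 7.54% and 3.11%, 13.7% and 13.9%, and 18.2% and 29.1% in the same order. Those of stress-type nuclei were 44.3% and 44.4%, 76.2% and 70.3%, and 77.4% and 86.3%. In kept, stress-type and other nuclei alike, both mutant groups lay above WT-CD.

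Hypertrophy and stress genes outside the selection rule had 5 of 17 called higher (Ankrd23, Flnc, Enah, Cryab and Nppa) and none lower, beside 1.13% and 1.32% of all genes, and a median log2 of 0.37. Cryab is also in the chaperone list, and Nppa is given below with its level in the other nuclei. Ankrd23, a titin-binding stretch-response gene, was at 70.3 and 78.7 CPM in WT-CD, 131 and 114 in R403Q-CD libraries, and 163 and 183 in R403Q-EMPA libraries (log2 1.18 ± 0.18, adjusted p = 0.00565), lost without R403Q-EMPA replicate 2 (0.0667, the highest of 17, from 1.32e-07). Flnc, filamin C of the Z-disc, was at 63.2 and 57.0, 67.1 and 74.8, and 149 and 113 CPM (log2 1.09 ± 0.17, adjusted p = 0.00571), lost without R403Q-EMPA replicate 1 (0.0771, the highest of 17, from 2.63e-06). Enah, an actin regulator, was at 441 and 476, 501 and 581, and 873 and 779 CPM (log2 0.81 ± 0.19, adjusted p = 0.0420), and held in 12 of 17 alternatives, from 0.00101 to 0.259, being lost without either R403Q-CD library (0.121 and 0.103) or either EMPA library (0.259 and 0.194). The 3 genes were highest in the EMPA libraries.

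Nppa, the atrial natriuretic peptide, is not in the rule but follows the markers that are. It was at 17.7 and 9.63 CPM in WT-CD, 30.8 and 36.2 in R403Q-CD libraries, and 278 and 45.4 in R403Q-EMPA libraries (R403Q-EMPA against WT-CD log2 3.503 ± 0.60, adjusted p = 0.0101). R403Q-EMPA replicate 1 stood far above its partner, and the call was lost without WT-CD replicate 2 (0.0648, the highest of 17, from 3.48e-54). Without R403Q-EMPA replicate 1 the log2 fold change was 1.74, with an adjusted p of 0.0217. In the other nuclei, which should lack the transcript, Nppa was at 16.3 and 9.82, 59.8 and 52.8, and 424 and 75.5 CPM, and thinned shares of kept nuclei with Nppa (4.38% and 2.61%, 9.27% and 14.2%, and 57.0% and 11.8%) lay below those of other nuclei in every library (unthinned 4.74 to 73.8% against 3.85 to 70.0%, with the kept share above that of other nuclei in 4 of the 6 libraries). The part of transcripts from other cells in the Nppa of kept nuclei was not tested.

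The metabolic lists held 0 to 2 calls each, where 2.45% of all genes were called, and nothing particular to them is read from these counts. Of 37 nuclear genes of the respiratory chain 1 rose (Ndufb5, log2 0.74, adjusted p = 0.0324) and none fell, although 35 had a log2 above 0 and the median was 0.34. Its call held in 11 of 17 alternatives, from 0.00552 to 0.246, and was lost without any 1 library but WT-CD replicate 2 (0.0504, 0.0734, 0.0673, 0.246 and 0.105). None of 17 TCA cycle genes was called (median 0.31, 14 above 0) and none of 24 genes of fatty acid use (median 0.07). Of 25 genes of glucose use 2 fell, the glycolytic regulator Pfkfb1 and the glycogen phosphorylase Pygb, while the list's median was 0.28. Pfkfb1 was at 113 and 80.8 CPM in WT-CD, 44.1 and 55.9 in R403Q-CD libraries, and 29.7 and 36.9 in R403Q-EMPA libraries, 2.93-fold lower in R403Q-EMPA (log2 -1.55 ± 0.20, adjusted p = 0.00223), and held in all 17 alternatives up to 0.0406. Pygb was at 360 and 438, 368 and 446, and 229 and 183 CPM (log2 -0.997, adjusted p = 0.0268), lost without R403Q-EMPA replicate 1 (0.133) or 2 (0.251, the highest of 17, from 5e-05).

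Ppargc1a, a coactivator of mitochondrial genes, was at 536 and 820 CPM in WT-CD, 1076 and 1075 in R403Q-CD libraries, and 455 and 656 in R403Q-EMPA libraries, and was not called (log2 0.66 ± 0.26 in R403Q-CD against WT-CD and -0.99 ± 0.27 in R403Q-EMPA against R403Q-CD, adjusted p = 0.571 and 0.184). In the list of branched-chain amino acid and ketone use 1 of 23 fell, Bckdha of the branched-chain ketoacid dehydrogenase (log2 -1.21, adjusted p = 0.0296), and the ketone enzyme Oxct1 was at 558 and 588, 576 and 650, and 641 and 570 CPM. The Bckdha call was lost without WT-CD replicate 1 (0.0581) or R403Q-EMPA replicate 1 (0.244, the highest of 17, from 7.03e-06) or 2 (0.0631). In the mTOR and AMPK list 1 of 18 rose, Ddit4, at 9.90 and 14.6 CPM in WT-CD and 39.7 and 52.7 in R403Q-EMPA libraries (3.73-fold, log2 1.90 ± 0.25, adjusted p = 0.00308, at most 0.0345 over 17 alternatives). The cotransporter that EMPA inhibits, Slc5a2, had 1 UMI in WT-CD replicate 1, 1 in R403Q-CD replicate 1 and 0 in the other 4 libraries of kept nuclei of 5000 UMIs or more.

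Contractile and electrical genes of the adult cardiomyocyte held 1 call in 4 lists, beside the 2.45% called over all genes. Of 23 tested adult sarcomere genes Mylk4 alone fell. Genes of the rule are given without a test, with Ttn at 23556 and 30411 CPM in WT-CD, 29081 and 29592 in R403Q-CD libraries, and 29683 and 31068 in R403Q-EMPA libraries, and Myh6 at 7586 and 9497, 9244 and 8953, and 8997 and 7942 CPM. None of 17 genes of calcium release and uptake was called, and the calcium pump Atp2a2 was at 4244 and 3995, 4146 and 4291, and 3802 and 3963 CPM. None of 18 genes of sodium and potassium currents (median log2 -0.13) and none of 17 of the intercalated disc (median -0.30, 12 below 0) was called. A p that misses the threshold does not show that these levels were alike.

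Of 5 other lists 4 had 1 call each in R403Q-EMPA against WT-CD, where 2.45% of all genes were called. Crhr2 was the fall among 21 receptors (median log2 -0.30), Nr4a1 that among 13 immediate early genes (log2 -2.35, adjusted p = 0.0447) and Acta2 that among 6 atrial and fetal sarcomere genes (log2 -2.01, adjusted p = 0.0267). Acta2 is also a smooth muscle marker. Hand2, at 42.5 and 33.4, 80.4 and 59.5, and 77.5 and 59.5 CPM, was the rise among 17 transcription factors (log2 0.82, adjusted p = 0.0493), and held in 5 of 17 alternatives, from 0.002 to 0.321, being lost without any 1 library (0.0571, 0.101, 0.0566, 0.0510, 0.321 and 0.109). None of 15 metabolic regulators was called. The Nr4a1 call was lost without WT-CD replicate 2 (0.114) or R403Q-EMPA replicate 1 (0.241, the highest of 17, from 2.3e-05) or 2 (0.221), and that of Acta2 without WT-CD replicate 2 (0.0846) or R403Q-EMPA replicate 2 (0.209, the highest of 17, from 4.83e-15).

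Slc35f3 and a pair of unnamed transcripts were among the largest rises. Slc35f3 was at 7.78 and 11.9 CPM in R403Q-EMPA libraries (log2 3.15 ± 0.48 against WT-CD, adjusted p = 0.00565), held in 15 of 17 alternatives, from 5.3e-10 to 0.0666, and was lost without R403Q-EMPA replicate 2 (0.0636). Gm36640 was at 0.649 and 0.197 CPM in WT-CD, against 3.33 and 3.42 in R403Q-EMPA libraries (log2 2.85 ± 0.66, adjusted p = 0.0420), and Gm57325 at 0.974 and 0.393 against 3.06 and 6.38 CPM (log2 2.71 ± 0.62, adjusted p = 0.0398). Each of these transcripts held in 5 alternatives, of 14 and 16 (0.00501 to 0.274 and 0.000341 to 0.390). Both were lost without any 1 library (Gm36640 0.0697 to 0.274, Gm57325 0.0591 to 0.390).

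The largest falls by rule were at low levels. Col13a1, a transmembrane collagen, was at 6.49 and 11.2 CPM in WT-CD, 2.13 and 2.88 in R403Q-CD libraries, and 1.11 and 0.684 in R403Q-EMPA libraries (log2 -3.33 ± 0.55, adjusted p = 0.00835), lost without R403Q-EMPA replicate 1 (0.0657) or 2 (0.0987, the highest of 17, from 3.23e-08). Its level in the other nuclei was 12.7 to 25.2 CPM. Cacna1s, the calcium channel of skeletal muscle, was at 2.60 and 3.15 CPM in WT-CD and 0.278 and 0.228 in R403Q-EMPA libraries, which is 2 UMIs against 32 (ratio 0.0880, counting interval 0.0102 to 0.345), and Gm56533 at 2.27 and 2.16 against 0 and 0.228 CPM. Fndc1 and Mthfd1l, which were at 45.7 to 156 CPM in the other nuclei, fell by 2.69 and 2.60 on the log2 scale, beside a fibroblast marker sum of 179 to 384 CPM in WT-CD and 115 to 141 CPM in R403Q-EMPA libraries. Both calls held in 9 alternatives (of 15 and 17, adjusted p 7.73e-05 to 0.241 and 7.49e-05 to 0.467) and were lost without R403Q-EMPA replicate 1 (0.241 and 0.161) or 2 (0.194 and 0.107), that of Fndc1 also without WT-CD replicate 2 (0.0965) and that of Mthfd1l without WT-CD replicate 1 (0.0528). The calls of Cacna1s and Gm56533 (adjusted p = 0.0368 and 0.0489) each held in 3 alternatives, of the 10 and 11 in which the gene was tested. Of the groups compared, only WT-CD reached the level of the filter on low counts in these genes, so both calls are a description.

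Below 5000 UMIs fewer genes could be tested and fewer were called. For R403Q-CD against WT-CD 4 of 7355 genes rose (0.0544%) and none fell, and Fnip2 and Ptgds were among both these 4 (50.0%) and the 25 called at higher depth (8.0%). Fnip2 was at 95.9 and 107 CPM in WT-CD and 346 and 350 in R403Q-CD libraries (log2 1.74 ± 0.28, adjusted p = 0.0341), and Ptgds at 160 and 126 against 461 and 484 CPM (log2 1.66 ± 0.28, adjusted p = 0.0432). Ankrd23 was at 57.5 and 60.9 against 213 and 262 CPM (log2 1.97 ± 0.30, adjusted p = 0.0341), and Ccdc85a at 22.7 and 7.61 against 102 and 115 CPM (log2 2.60 ± 0.44, adjusted p = 0.0432). In all 4 the R403Q-CD libraries stood clearly higher, yet none was called each time that 1 library was left out. Over 16 alternatives Ptgds ranged from 9.07e-05 to 0.995, and over 15 Fnip2 ranged from 6.17e-05 to 0.176, Ankrd23 from 1.29e-05 to 0.278 and Ccdc85a from 8.59e-06 to 0.516. Each was lost without WT-CD replicate 1 (adjusted p 0.116 to 0.123), WT-CD replicate 2 (0.0634 to 0.131) or R403Q-CD replicate 2 (0.100 to 0.133), and Fnip2 and Ptgds also without R403Q-CD replicate 1 (0.0579 and 0.143).

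For R403Q-EMPA against R403Q-CD below 5000 UMIs edgeR called 0 of 7355 genes (0%), with 521 (7.08%) at an unadjusted p below 0.05, and DESeq2 called 0. The smallest p-values were those of Hsph1 (log2 2.78), Naaladl2 (log2 -2.47) and Dnaja1 (log2 2.06), each at an adjusted p of 0.0553. Between R403Q-EMPA and WT-CD the test called 8 genes (0.109%), 4 higher and 4 lower (0.0544% each), and all 8 were also called at higher depth. Hsph1 was at 1.74 and 3.81 CPM in WT-CD, 10.4 and 11.2 in R403Q-CD libraries, and 85.6 and 69.1 in R403Q-EMPA libraries (adjusted p = 0.00248), which is 119 UMIs against 2 (ratio 32.1, counting interval 8.69 to 268). Crhr2 was at 101 and 107, 31.2 and 37.2, and 29.5 and 27.4 CPM (log2 -1.93 ± 0.33, adjusted p = 0.0344), and Mylk4 at 488 and 392, 146 and 327, and 91.2 and 129 CPM (log2 -2.07 ± 0.35, adjusted p = 0.0335). In both genes the mutant libraries of either diet lay below both WT-CD libraries. Crhr2 was lost without WT-CD replicate 2 (0.0905) or R403Q-EMPA replicate 1 (0.156, the highest of 14, from 0.00105) or 2 (0.0824), and Mylk4 without WT-CD replicate 2 (0.0507) or R403Q-EMPA replicate 1 (0.143, with 6.64e-08 to 0.998 over 16).

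The remaining calls below 5000 UMIs were Ptgds, Gbp6 and Hspa8, which rose, and Apex2 and Angpt1, which fell. Ptgds was at 160 and 126 CPM in WT-CD and 648 and 864 in R403Q-EMPA libraries (log2 2.31 ± 0.28, adjusted p = 0.00248), and with Hsph1 was called whichever library was left out. Neither Ptgds nor Hsph1 was called with no mitochondrial limit or at a limit of 1%, where 0 of the 8 calls remained. Angpt1, or angiopoietin 1, was at 406 and 426, 429 and 240, and 152 and 140 CPM (log2 -1.59, adjusted p = 0.0415). Apex2, a DNA repair nuclease, was at 200 and 187, 104 and 127, and 67.3 and 59.6 CPM (log2 -1.68, adjusted p = 0.0335). Fibroblast markers were at 265 to 799 CPM and endothelial markers at 267 to 541 CPM in these nuclei, against 115 to 384 and 66.8 to 121 CPM at higher depth, and their part in these differences was not tested. The Angpt1 and Apex2 calls were lost without WT-CD replicate 2 (0.0909 and 0.0543), R403Q-EMPA replicate 1 (0.178 and 0.127) or R403Q-EMPA replicate 2 (0.0966 and 0.0795), with ranges of 0.000252 to 0.998 over 16 and 0.000403 to 0.235 over 15 alternatives. Gbp6 and Hspa8 were lost without WT-CD replicate 1 (0.0809 and 0.0583), WT-CD replicate 2 (0.102 and 0.113) or R403Q-EMPA replicate 1 (0.127 and 0.169), with ranges of 0.000403 to 0.127 over 14 and 0.000396 to 0.312 over 15.

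Kept and stress-type nuclei differ by the selection, and their direct contrast is a description without a test. Stress marker UMIs averaged 0.206 to 0.349 per kept nucleus and 4.84 to 14.5 per stress-type nucleus at 5000 UMIs or more. Of 10213 genes with at least 30 UMIs, 571 were higher and 574 lower in kept nuclei in all 6 libraries. Outside the genes of the rule, Nppa was lowest relative to stress-type nuclei (median log2 -3.12, -3.63 to -2.72 over libraries), followed by the unnamed transcripts Gm56984 and Gm36569 (-2.12 each), skeletal actin Acta1 (-1.83), the splicing factor Nova1 (-1.72), the anaphase-promoting complex subunit Anapc15 (-1.71), Cd44 (-1.66), Ankrd1 (-1.65) and Casq1 (-1.56). The genes higher in kept nuclei differed less, with Slc9a2 at 0.92, Lgi1 at 0.74 and Tmc7 at 0.66.

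Whether the groups differed in another way in kept than in stress-type nuclei was tested as an interaction with the library as a block, over 13127 genes. It called 7 genes for R403Q-CD against WT-CD (0.0533%), 19 for R403Q-EMPA against R403Q-CD (0.145%) and 83 for R403Q-EMPA against WT-CD (0.632%), where 48 were more positive (0.366%) and 35 more negative (0.267%) in kept nuclei. The 7 were Ankrd1, the hemoglobin genes Hba-a1 and Hbb-bs, the macrophage genes Mrc1 and Slc9a9, 2010001K21Rik and Gm40658, of which Gm40658 was at 20.4 CPM in R403Q-CD replicate 2 and at 0 to 0.228 CPM in the other 5 libraries of kept nuclei. In the other nuclei Hbb-bs was at 167 to 1580 CPM and Mrc1 at 160 to 235 CPM, and their part in these calls was not tested. The stress-type class was not alike between groups, with a mean of 4.84 and 6.92 stress marker UMIs per nucleus in the WT-CD libraries, 7.56 and 11.7 for R403Q-CD, and 14.5 and 9.72 for R403Q-EMPA, and the part of this in the calls was not tested. Mylk4 fell less in kept nuclei. In stress-type nuclei it was at 560 and 533 CPM in WT-CD, 177 and 210 in R403Q-CD libraries, and 58.5 and 71.6 in R403Q-EMPA libraries, so the WT-CD libraries were alike in both classes and the EMPA libraries were not. Among stress-type nuclei of the EMPA libraries Mylk4 was at 133 and 111 CPM at 2 stress marker UMIs, and at 50.8 and 64.7 CPM at 3 or more. The log2 fold change of Mylk4 from WT-CD to R403Q-EMPA was -2.07 in kept and -3.12 in stress-type nuclei, a difference of 1.02 ± 0.11 (adjusted p = 3.43e-05), called in all 8 alternatives, up to 0.00771.

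Ankrd1, a stretch-responsive cofactor of the sarcomere and nucleus, differed in the other direction. In kept nuclei it was at 442 and 199 CPM in WT-CD, 123 and 172 in R403Q-CD libraries, and 189 and 107 in R403Q-EMPA libraries. In stress-type nuclei it was at 622 and 350, 354 and 584, and 722 and 372 CPM. The WT-CD libraries differed from each other in both classes, and in kept nuclei the fall by itself was not called (R403Q-EMPA against WT-CD log2 -1.13, adjusted p = 0.0762). The difference between the classes was -0.99 ± 0.11 for R403Q-CD against WT-CD (adjusted p = 0.000286) and -1.21 ± 0.11 for R403Q-EMPA against WT-CD (adjusted p = 6.21e-06), called in all 8 alternatives of each, up to 0.00536 and 0.00223.

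Tgfb2, a growth factor of the TGF-beta family, was called in neither class by itself (R403Q-EMPA against WT-CD, adjusted p = 0.486 in kept and 0.0624 in stress-type nuclei). Kept nuclei had 42.9 and 41.1 CPM in WT-CD, 23.9 and 33.3 in R403Q-CD libraries, and 41.1 and 28.0 in R403Q-EMPA libraries, and stress-type nuclei 56.4 and 47.7, 30.9 and 60.7, and 191 and 78.1 CPM. The difference for R403Q-EMPA against WT-CD was -1.57 ± 0.21 (adjusted p = 0.000452), lost without R403Q-EMPA replicate 1 (0.0515, the highest of 8, from 2.76e-17), the library with the highest value. Pfkfb1 was at 84.1 and 57.7, 39.2 and 33.7, and 11.8 and 16.1 CPM in stress-type nuclei and fell less in kept ones (difference 0.83 ± 0.19, adjusted p = 0.0483). That call held in 3 of 8 alternatives, from 0.0104 to 0.640 (the highest after thinning to 5000 UMIs), and was lost without WT-CD replicate 1 (0.157) or 2 (0.200) or R403Q-EMPA replicate 1 (0.510) or 2 (0.170).

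**Figure D5:**
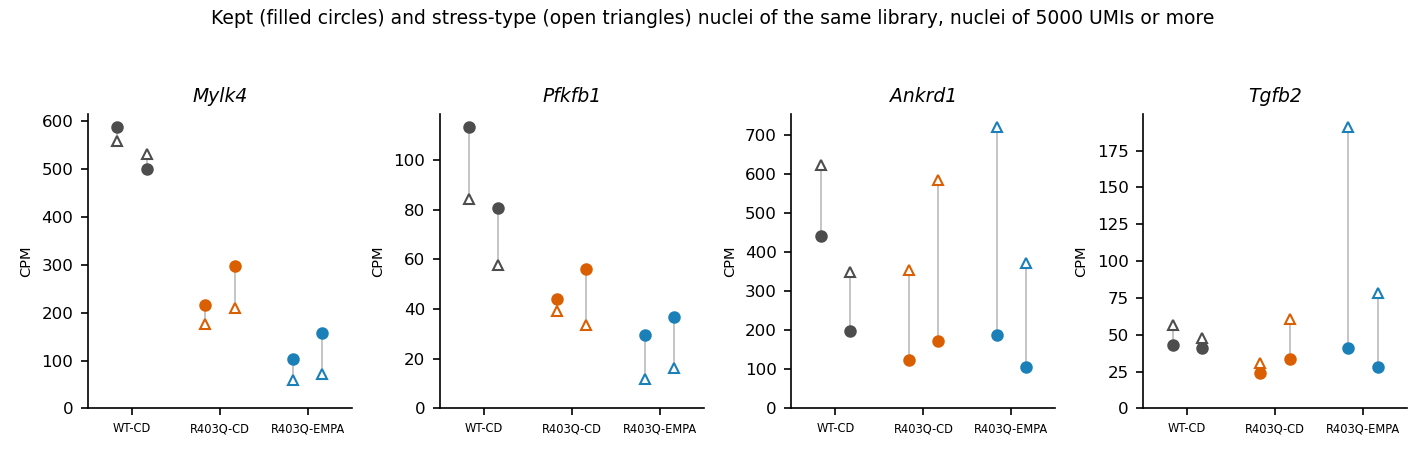
Levels in CPM of Mylk4, Pfkfb1, Ankrd1 and Tgfb2 in kept (filled circles) and stress-type (open triangles) nuclei of 5000 UMIs or more of each library. Mylk4 is alike in both classes in WT-CD and lower in stress-type nuclei of R403Q-EMPA libraries (58.5 and 71.6 CPM against 104 and 157), and Ankrd1 is higher in stress-type nuclei of all 6 libraries.

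The kept nuclei also varied among themselves within a library. After thinning to 5000 UMIs, the 15 genes with the largest variance over mean were led by the nuclear RNA Malat1 (median ratio 56.0, median 428 to 645 UMIs per nucleus over libraries) and by F13a1 (18.7). F13a1, Slc9a9 and Mrc1, which are known from macrophages, had 0 UMIs in 95.1 to 98.9% of nuclei, and the top 5% of nuclei held all of their UMIs. Fhl2, a sarcomere-associated LIM protein, varied more evenly, with medians of 18 to 33 UMIs, and the potassium channel Kcnd2 had medians of 9 to 18, no UMI in 2.19 to 11.8% of nuclei and 90th percentiles of 23 to 42. The olfactory receptor gene Or7e176 had 0 UMIs in 82.7 to 92.9% of nuclei. Mylk4 had medians of 0 to 2 UMIs and none in 27.3 to 76.8% of nuclei. The remaining genes were Ttn, Ryr2, Slc8a1, Gpc6, Abca8a, Fgf13, Cacna1c and Dmd, of which Abca8a is a fibroblast marker.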

How the data were processed

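The authors isolated nuclei from frozen left ventricle and deposited, per library, a matrix of raw UMI counts per gene and barcode, made with Cell Ranger 8.0.1 on GRCm39 per the submitters' processing notes. Each matrix held 33696 genes. Counts of kept nuclei were summed per library and depth class and tested with edgeR 4.0.16 in R 4.3.3 (TMM, filterByExpr, quasi-likelihood test over all 6 libraries, Benjamini-Hochberg, 3 residual degrees of freedom, called at adjusted p below 0.05). DESeq2 1.42.0, another filter, other limits on nuclei, thinning to 5000 UMIs and leaving out each library were alternatives. Genes of the selection rule stayed in the fits and out of the counts. A gene near 0 in 1 group could pass the filter on low counts through another group, as did Hspa1a, Slc35f3, Gm36640, Gm57325, Cacna1s and Gm56533. Named were the 6 largest rises and falls called without overlap, or the 3 smallest p-values where under 3 genes were called, list members, and the 15 most variable genes. The members, lists and tests were chosen with earlier results of these data known. Doublets were predicted with scanpy 1.11.5 and removed only in an alternative. Python 3.11.15, numpy 2.4.6, pandas 2.3.3 and scipy 1.17.1 were used. The summed counts were 3599228 to 6159668 UMIs per library at 5000 UMIs or more, with a biological coefficient of variation of 0.149, and 262695 to 838840 below, with 0.205. Promoters came from RefSeq, GRCm38.p6, another build than that of the files. The scripts were tested on simulated data.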

Additional observations from a re-analysis of the deposited data

Results flagged for a closer look

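Differences between groups that differed between kept and stress-type nuclei, by the interaction test in edgeR, numbered 7 genes for R403Q-CD against WT-CD, 19 for R403Q-EMPA against R403Q-CD and 83 for R403Q-EMPA against WT-CD. Values below are the log2 fold change in kept minus that in stress-type nuclei, for genes of the lists. For R403Q-CD against WT-CD, Ankrd1 was at -0.99. For R403Q-EMPA against R403Q-CD, Mylk4 was at 0.58, the alpha-1A adrenergic receptor Adra1a at 0.43 and Tgfb2 at -1.23, and these 3 were called in 4, 1 and 5 of 8 alternatives (adjusted p 0.000686 to 0.452, 0.0234 to 0.716 and 2.1e-09 to 0.703). Without R403Q-EMPA replicate 1 none of the 3 was called (0.101, 0.498 and 0.703) and 1 of the 19 genes was left. Mylk4 was also lost without R403Q-EMPA replicate 2 (0.452) or R403Q-CD replicate 1 (0.173), Tgfb2 without R403Q-CD replicate 1 (0.0661), and Adra1a without any 1 library (0.0625 to 0.498). For R403Q-EMPA against WT-CD, the muscle kinases Mylk4 and Mylk3 were at 1.02 and 0.38, the glycolytic genes Pfkfb1 and Eno3 at 0.83 and 0.51, and the signalling genes Erbb4 and Pde3a at 0.31 each. On the negative side the actins and actin partners Actc1, Enah and Tpm2 were at -0.35, -0.37 and -2.85, Ankrd1 at -1.21, Tgfb2 at -1.57 and the natriuretic peptide clearance receptor Npr3 at -2.04. Of these 12 genes, Mylk4 and Ankrd1 were called in all 8 alternatives, while Pde3a and Erbb4 were called in 1 of 8 (adjusted p 0.0267 to 0.621 and 0.0214 to 0.640). The leave-out of WT-CD replicate 2 gave the highest adjusted p for Tpm2 (0.253), Eno3 (0.381) and Pde3a (0.621), and that of R403Q-EMPA replicate 1 for Npr3 (0.319), Enah (0.149), Actc1 (0.244) and Mylk3 (0.445).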

How the results depend on the processing

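Counts of calls moved more than the calls of the genes named first. At 5000 UMIs or more, the 25 genes of R403Q-CD against WT-CD became 56 with DESeq2, 233 with no filter on low counts, 42 at a limit of 1% mitochondrial UMIs, 42 with the gate at 3% and 8 to 118 with 1 library left out. The 20 of R403Q-EMPA against R403Q-CD became 93 with DESeq2, 308 with no filter, 48 at 1% mitochondrial UMIs, 38 with all cardiomyocyte nuclei, 59 with the gate at 3%, 10 after thinning, 38 without nuclei holding UMIs of other cells (chosen after seeing the data) and 5 to 152 with 1 library left out. The 308 of R403Q-EMPA against WT-CD became 801 with no filter, 178 at 0 stress marker UMIs, 669 with all cardiomyocyte nuclei and 67 to 593 with 1 library left out (282 with DESeq2).

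Below 5000 UMIs, the 4 of R403Q-CD against WT-CD became 44 with no filter, 0 with no mitochondrial limit, 0 at 1%, 0 at 0 stress marker UMIs, 7 with all cardiomyocyte nuclei, 7 with the gate at 3%, 1 without predicted doublets, 2 without nuclei with atrial UMIs and 1 to 12 with 1 library left out. The 0 of R403Q-EMPA against R403Q-CD became 67, 3 and 1 with no filter, all cardiomyocyte nuclei and the gate, 4 without atrial UMIs and 0 to 18 with 1 library left out. The 8 of R403Q-EMPA against WT-CD became 19 with DESeq2, 81 with no filter, 0 with no mitochondrial limit, 0 at 1%, 2 at 0 stress marker UMIs, 64 with all cardiomyocyte nuclei and 2 to 25 with 1 library left out. The interaction counts of 7, 19 and 83 became 59, 88 and 175 with no filter, 10 after thinning (R403Q-EMPA against R403Q-CD), and 5 to 35, 1 to 34 and 19 to 137 with 1 library left out. The mean kept share of 68.3%, 52.9% and 37.4% became 53.2%, 37.6% and 25.5% at 0 stress marker UMIs and 81.8%, 70.1% and 48.0% after thinning. The cause of these moves was not tested.

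No named gene reversed in any alternative. Of 868 values with 1 library left out 533 kept direction and side of the threshold, 326 lost the call and 9 gained it, and of 1141 under other settings 965, 169 and 7 did. No paired analysis was possible because the labels give no replicate number that groups share. With 2 libraries per group, and fewer UMIs below 5000 per nucleus, smaller differences were not detectable at this depth.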
